A study of Mus musculus with 6 samples.

Results

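The genes described here encode enzymes that methylate arginine or clear dimethylarginine. They are 7 arginine methyltransferases (Prmt1, Prmt2, Prmt3, Carm1, Prmt5, Prmt6 and Prmt7), both dimethylarginine hydrolases (Ddah1 and Ddah2) and the mitochondrial aminotransferase Agxt2. They were taken by symbol, each from the row with its Ensembl identifier, and make up 10 of the 52550 genes in the deposited count table. Their RNA was read in 6 samples of wild-type mouse splenic CD3+ T cells, all activated for 24 h with an activator of CD3 and CD28. In 3 samples the cells were activated only (TCR alone), and in the other 3 the labels add DMGV at 100 ng/ml (TCR+DMGV). The legend in the study that describes this experiment, at the same dose and time, names the added compound LNY1. LNY1 is a factor purified from fibroblast conditioned medium, which the study identifies as asymmetric and symmetric dimethylarginine. The label's name is used here without deciding between DMGV and LNY1. The labels number 3 biological replicates per group and give no strain, sex or age. All 6 samples carried the activator, so the comparison is between activated cells with and without the compound.

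Protein arginine methyltransferases move methyl groups from S-adenosylmethionine to arginine side chains. Type I enzymes leave asymmetric dimethylarginine, type II enzymes leave symmetric dimethylarginine, and the type III enzyme PRMT7 leaves monomethylarginine. When methylated proteins are broken down, the modified amino acids are set free as ADMA and SDMA, and ADMA is known as an inhibitor of nitric oxide synthases. DDAH1 is the textbook hydrolase that turns ADMA into citrulline, DDAH2 is its close relative, and AGXT2, a transaminase known from kidney and liver, converts ADMA and SDMA to dimethylguanidino valeric acid (DMGV). In T cells PRMT1 and PRMT5 are known to methylate splicing factors and signalling proteins.

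The summed gene counts ranged from 37758725 to 43718867 per sample. All 10 T cell markers were detected, and their summed FPKM (a level per length of gene, relative to all fragments of a library) was 949 to 1056 in TCR alone and 1001 to 1108 in TCR+DMGV. B cell markers summed to 3.81 to 5.42 FPKM in TCR alone and 3.88 to 4.48 in TCR+DMGV. Stromal and endothelial markers summed to 4.67 to 5.46 and 4.96 to 5.33, of which Pecam1 alone read 4.64 to 5.40 over all samples. Myeloid markers summed to 2.40 to 3.74 and 2.40 to 3.44, and erythroid markers to 2.40 to 3.05 and 1.12 to 2.43. Neutrophil, NK and dendritic lists each stayed at 0.795 or below. The 4 markers of hepatocytes and kidney (Alb, Apoa1, Umod, Slc34a1) were at 0 counts in all 6 samples. On the first principal component of all genes tested (32.2% of the variance), TCR alone replicate 3 and TCR+DMGV replicate 1 (scores 42.1 and 42.9) stood apart from the other 4 samples (-34.9 to -10.5). In bulk RNA of this kind, fewer cells that express a gene and less RNA of it per cell cannot be told apart.

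Activated T cells held most of their methyltransferase RNA in Prmt5, Prmt1 and Carm1, and had 0 counts of Ddah1 and Agxt2 in every sample. Levels are compared between genes in FPKM, which is scaled to gene length. The mean over the 6 samples ran from 62.8 FPKM for Prmt5 down to 0.545 for Ddah2. Prmt5 and Prmt1 could not be ordered, since Prmt5 was the higher in 3 of 6 samples. Prmt3 and Prmt7 could not be ordered either, with Prmt3 the higher in 4 of 6 samples. Every other neighbouring pair of the 8 genes with counts kept its order in all 6 samples, and the ranges of those pairs did not overlap.

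Prmt5, the main type II enzyme (GRCm38, chr14:54507187-54517525, minus strand), was read at 57.9, 57.2 and 66.8 FPKM in TCR alone replicates 1, 2 and 3 and at 67.7, 63.1 and 63.9 in TCR+DMGV. Prmt1, the main type I enzyme (chr7:44975989-44986568, minus strand), was read at 60.4, 63.5 and 63.0 FPKM in TCR alone and at 61.6, 66.9 and 58.1 in TCR+DMGV. Both groups overlapped for both genes, and both levels were above those of 94.6% or more of the 14786 genes tested. Prmt1 and Prmt5 together made up 59.9% to 63.1% of the summed FPKM of the 7 methyltransferases in single samples.

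Carm1 (PRMT4, chr9:21546894-21592623, plus strand), a type I enzyme known as a transcriptional coactivator that methylates histone H3, followed at 37.7, 28.1 and 41.3 FPKM in TCR alone and 38.7, 39.6 and 39.3 in TCR+DMGV. Its lowest sample was TCR alone replicate 2, and the 3 TCR+DMGV values lay within the range of TCR alone. With Carm1 added, 3 genes held 77.8% to 80.7% of the summed methyltransferase FPKM. Carm1 overlaps Yipf2 on the other strand, which had 1212 to 2329 counts, and the counting is not stated to use strand.

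Prmt3, a cytosolic type I enzyme known to methylate the ribosomal protein RPS2 (chr7:49778346-49858265, plus strand), was read at 14.2, 15.3 and 13.6 FPKM in TCR alone and 15.9, 13.4 and 15.2 in TCR+DMGV. Prmt7, the type III enzyme (chr8:106210936-106252794, plus strand), was read at 12.6, 13.5 and 14.2 FPKM in TCR alone and 14.5, 14.3 and 14.4 in TCR+DMGV. The Prmt7 values of TCR+DMGV all lay above those of TCR alone, whereas the Prmt3 groups overlapped. The means of the 2 genes over all samples were 14.6 and 13.9 FPKM.

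Prmt6, a nuclear type I enzyme (chr3:110246109-110250998, minus strand), was read at 8.46, 10.9 and 10.9 FPKM in TCR alone and 11.4, 10.8 and 10.3 in TCR+DMGV. Prmt2 (chr10:76207222-76237865, minus strand) encodes a type I enzyme with an SH3 domain and known for weak activity. It was the lowest of the 7 methyltransferases, at 2.08, 2.77 and 2.96 FPKM in TCR alone and 2.59, 2.54 and 2.38 in TCR+DMGV. For both genes TCR alone replicate 1 was the lowest sample, and the groups overlapped. Prmt6 was 4.10 times as high as Prmt2 by the mean of all samples. The 5 type I genes together made up 61.3% to 63.5% of the summed FPKM of the 7 methyltransferases. Prmt6 overlaps the antisense gene C130013H08Rik, which had 1143 to 1411 counts.

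Of the clearing enzymes, Ddah2 alone had counts. Ddah2 (chr17:35059035-35062095, plus strand) had 30, 42 and 34 counts in the TCR alone samples and 60, 39 and 43 in TCR+DMGV, or 0.438, 0.548 and 0.465 FPKM and 0.758, 0.487 and 0.573 FPKM. TCR+DMGV replicate 1 was the highest sample, and the groups overlapped. The mean of Ddah2 was above that of 19.0% of the genes tested.

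Ddah1 (chr3:145758675-145894277, plus strand) and Agxt2 (chr15:10358532-10410153, plus strand) were listed at 0 counts in all 6 samples, as were the 3 listed transcripts of Ddah1 and the 4 of Agxt2. As a reference level for a count of 0, 3 counts per library were taken, which is 0.0686 to 0.0795 CPM (counts scaled to a fixed library total). On the length of the longest coding transcript, 3 counts came to 0.0162 to 0.0188 FPKM for Ddah1 and 0.0278 to 0.0322 for Agxt2. Counts in this table are not single reads, and a 0 can stand beside more than 3 counts in like samples. In TCR+DMGV, Slc7a2 had 24, 0 and 24 counts and Nos1 had 25, 0 and 10. The 3 counts are therefore a reference and not an upper limit, and the folds drawn from them are not lower bounds. At 3 counts, in the library where the fold was smallest, Ddah1 would be 23.3-fold lower than Ddah2 and 3208-fold lower than Prmt1. Agxt2 would be 13.6-fold lower than Ddah2 and 1873-fold lower than Prmt1 on the same reckoning. The study reports a rise of Agxt2 mRNA, read by qPCR, when splenic T cells were activated for the same time as here. It names Ddah1 as measured in that assay too, and it checked knockdown of Agxt2 in splenic T cells by qPCR. A count of 0 in this table therefore does not show that the RNA was absent. Why the counts and the qPCR differ for Agxt2 was not tested.

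Some of the genes beside both loci were read and others were not. Dnajc21 and Brix1, downstream of Agxt2, had 3497 to 4343 and 4563 to 8894 counts, and Bcl10, downstream of Ddah1, had 1548 to 2139. Beside Agxt2, Prlr had 0 to 18 counts, and Gm21973, which overlaps Agxt2 on the same strand, Ttc23l and Gm17044 had 0. Beside Ddah1, Ccn1 had 10 to 31 counts, and Gm17501, Gm43408, Gm35409 and Wdr63 had 0. A processed pseudogene on the same strand within Ddah1, Rpl36a-ps2, had 347 to 491 counts that the table gives to the pseudogene and not to Ddah1. A 0 in this table was not rare: 7438 of 21819 protein-coding genes had 0 counts in every sample, and all 37 genes of the mitochondrial genome, which T cells are known to express, were at 0 as well.

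**Figure D1:**
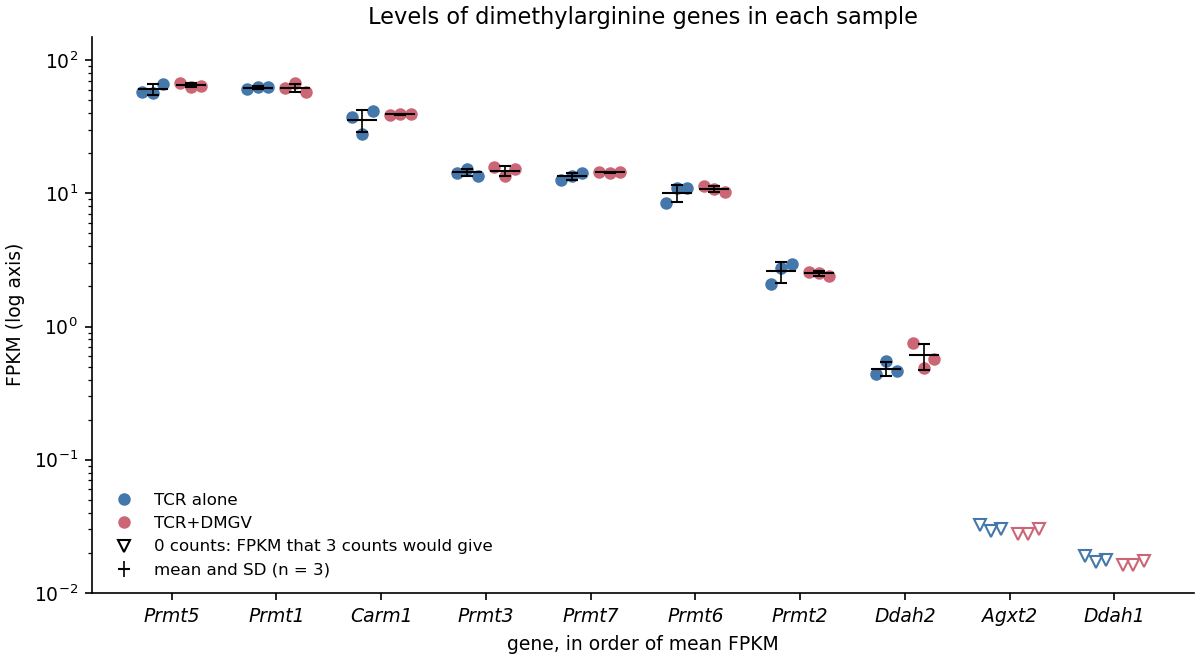
FPKM (log axis) of the 10 genes in each sample, in order of mean level, with TCR alone in blue, TCR+DMGV in red, and the mean and SD of each group of 3 in black. Open triangles mark genes with 0 counts, at the FPKM that 3 counts would give; Prmt5, Prmt1 and Carm1 lie between 28.1 and 67.7 FPKM, Ddah2 between 0.438 and 0.758, and Agxt2 and Ddah1 have 0 counts throughout.

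The comparison of TCR+DMGV with TCR alone asked whether the RNA of these enzymes differed when the compound was present. None of the 8 genes that passed the filter on low counts differed past the threshold (edgeR quasi-likelihood test, two-sided, adjusted p below 0.05), against 2 of all 14786 genes tested (0.0135%). At an unadjusted p below 0.05 the count was 0 of 8, against 471 genes (3.19%). DESeq2 called 0 of them too, against 14 of 22505 genes (0.0622%). The edgeR adjusted p was 0.999 for each of the 8 genes. Of the 8 log2 fold changes (TCR+DMGV minus TCR alone), 7 were above 0 and their median was 0.12, beside 0.0024 for all genes tested.

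The intervals differed widely in what they leave possible. For Prmt1 the log2 fold change was 0.01 (SE 0.08, 95% interval -0.17 to 0.20), and in percent the interval ran from -11.3% to 15%. For Prmt5 it was 0.12 (SE 0.08, interval -0.06 to 0.29), or -4.17% to 22.5%, with the smallest p of the 8 genes (0.167 unadjusted in edgeR). Doublings and halvings lay outside the intervals of all 7 methyltransferases. For Ddah2 the log2 fold change of 0.34 had an interval of -0.40 to 1.07, which a doubling did not fall outside.

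Prmt7 was the only gene of the 8 whose groups did not overlap. Its CPM was 92.2 ± 5.15 in TCR alone and 99.9 ± 1.80 in TCR+DMGV (SD, n = 3 each), higher in all 3 TCR+DMGV samples, with an exact permutation p of 0.1, the smallest that 3 against 3 samples allow. Over all genes tested, 8.86% had groups that did not overlap (4.92% higher and 3.94% lower in TCR+DMGV), so 1 of 8 was near the background. The log2 fold change of Prmt7 was 0.12 (interval -0.06 to 0.29, edgeR adjusted p = 0.999).

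The remaining type I genes were spread more widely. Carm1 had a log2 fold change of 0.15 (interval -0.15 to 0.45) from 193 ± 33.2 CPM in TCR alone and 215 ± 7.15 in TCR+DMGV (SD, n = 3 each). Prmt6 had 0.12 (-0.17 to 0.40), Prmt3 0.06 (-0.17 to 0.29) and Prmt2 -0.04 (-0.42 to 0.33). The sample that set the spread of Carm1 was TCR alone replicate 2.

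Without the 2 samples that stood apart on the first component, Carm1 was at 0.29, Ddah2 at 0.13 and Prmt1 at 0.04, and Prmt3 and Prmt2 changed sign (-0.02 and 0.04). The lowest adjusted p among the 8 genes in that fit was 0.76. With only TCR alone replicate 2 left out, Carm1 was at 0.0174. TCR alone replicate 1 was the lowest sample in CPM for Prmt2, Prmt5, Prmt6, Prmt7 and Ddah2. Without that sample, the median of the 8 log2 fold changes was 0.04.

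**Figure D2:**
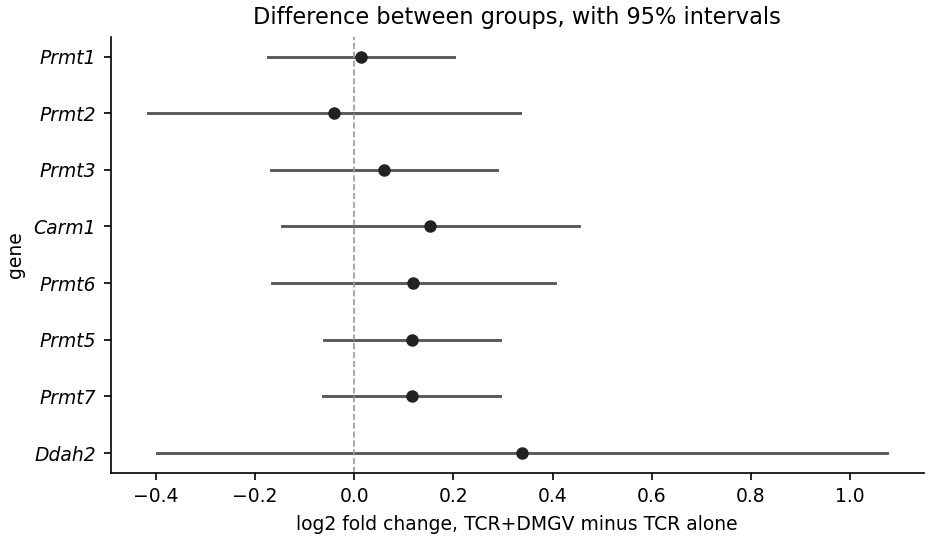
Log2 fold change (TCR+DMGV minus TCR alone, edgeR) of the 8 genes that passed the filter, with points for the estimate and lines for the 95% interval from 3 samples per group. All 8 intervals include 0, and that of Ddah2 (-0.40 to 1.07) is the widest.

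The split of counts among transcripts varied between samples for Carm1, Prmt1 and Prmt2, and little for Prmt5 and Prmt7. The annotation lists 70 transcripts of the 10 genes, 58 had a count and 49 were tested. The deposited transcript counts are StringTie's division of shared reads, so they are estimates that can trade reads between similar transcripts. None of the 49 passed the threshold of edgeR, nor did any of the 38401 transcripts tested (0%), so a count of 0 here says little about the 49. At an unadjusted p below 0.05, 1 of 49 was found, against 1235 of all transcripts (3.22%), and DESeq2 called 387 of 68434 transcripts (0.566%), none of them from these genes.

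The 4 stretches of sequence printed here separate the transcripts that the next values turn on. The Carm1 cassette exon is part of Carm1-201 and absent from Carm1-203, and skipping of an exon in this region is known to remove the arginine at which the enzyme methylates itself. The Carm1 extra exon is found in Carm1-204, which the annotation marks for nonsense-mediated decay. The Prmt1 cassette exon is part of Prmt1-202 and absent from Prmt1-203 and Prmt1-214, and in the human gene an exon of this kind is known to carry a nuclear export signal. The Prmt2 extension lengthens an exon in Prmt2-203. Capitals mark the stretch itself, and lower case marks the coding bases on its sides in the spliced transcript, 5′ to 3′ on the strand of the gene. All were read from the GENCODE M21 transcripts (GRCm38) and chosen after the transcript counts were seen.
Carm1 cassette exon, 69 bases, chr9:21587851-21587919, plus strand: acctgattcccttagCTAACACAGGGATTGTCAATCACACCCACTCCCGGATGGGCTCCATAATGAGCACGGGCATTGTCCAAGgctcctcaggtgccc
Carm1 extra exon, its first 30 bases, chr9:21574894-21574923, plus strand: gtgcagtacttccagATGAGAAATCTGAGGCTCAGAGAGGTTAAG
Prmt1 cassette exon, 54 bases, chr7:44984080-44984133, minus strand: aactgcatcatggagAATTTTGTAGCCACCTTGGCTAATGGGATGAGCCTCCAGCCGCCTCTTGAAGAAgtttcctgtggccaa
Prmt2 extension, 90 bases, chr10:76208584-76208673, minus strand: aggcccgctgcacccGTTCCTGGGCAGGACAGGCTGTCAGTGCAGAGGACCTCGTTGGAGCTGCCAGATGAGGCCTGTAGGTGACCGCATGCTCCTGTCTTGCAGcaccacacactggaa

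Carm1 showed the widest split. Its leading transcript, Carm1-201, had 120, 67 and 5182 counts in the TCR alone samples and 3262, 6555 and 5668 in TCR+DMGV. In TCR alone replicate 1 most counts were given to Carm1-204 instead (6138 counts), and in TCR alone replicate 2 to Carm1-202 (5111 counts). The share of Carm1 counts held by Carm1-201 was 19.8% ± 32.1 in TCR alone and 56.7% ± 18.5 in TCR+DMGV (SD, n = 3 each, exact permutation p = 0.2), and the groups overlapped. The spread within groups, 26.2 percentage points, was larger than that of 87.7% of the 9704 genes with such a share, whose median was 6.33. The spreads of the leading shares of Prmt1 and Prmt2, 12.2 and 12.5 percentage points, were larger than those of 66.8% and 67.8% of genes.

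The Carm1 transcript with the smallest p was Carm1-203, which lacks the cassette exon printed above. It had 1076, 547 and 412 counts in the TCR alone samples and 273, 354 and 313 in TCR+DMGV, so every TCR+DMGV value lay below every TCR alone value. Of the 49 transcripts tested, 5 had counts that did not overlap between groups. The background over all transcripts tested was 9.36% (6.55% higher and 2.81% lower in TCR+DMGV). Carm1-203, Prmt1-208 and Prmt1-210 were lower in TCR+DMGV, and Prmt1-206 and Carm1-210 were higher. These counts were not scaled to the library totals, which ran from 37758725 to 43718867. As shares of their genes, the 2 higher transcripts overlapped between groups. Prmt1-206 held 1.08% to 1.36% in TCR alone and 1.29% to 2.12% in TCR+DMGV, and Carm1-210 held 0.264% to 0.549% and 0.392% to 0.554%. The log2 fold change of Carm1-203 was -1.21 (edgeR interval -2.29 to -0.13, unadjusted p = 0.033, adjusted p = 1.00), and in DESeq2 the adjusted p was 0.66. It is the 1 transcript of 49 counted above, a share near the background of 3.22%.

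Taken over all Carm1 transcripts that span the place, the cassette exon was included in 85.7%, 90.8% and 95.2% of counts in the TCR alone samples and 96.5%, 95.9% and 95.9% in TCR+DMGV. The means were 90.6% ± 4.75 and 96.1% ± 0.338 (SD, n = 3 each), and TCR alone replicate 3 lay just below the TCR+DMGV samples. These shares largely restate the counts of Carm1-203, since only Carm1-203 and Carm1-210 skip the exon, and they are a description with no test. The extra exon of Carm1-204 was included in 79.9%, 5.28% and 0.254% of counts in the TCR alone samples and 47.6%, 0.203% and 0.313% in TCR+DMGV. The samples with a large share were replicate 1 of each group. Their 95% Wilson intervals were 78.9% to 80.7% and 46.5% to 48.6%, which cover counting error only and treat the divided counts as single reads.

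Prmt1 was divided among 3 main transcripts. Prmt1-214 led with 3264, 1826 and 4778 counts in the TCR alone samples and 4967, 3773 and 3509 in TCR+DMGV, a share of 34.7% ± 15.6 and 40.0% ± 7.33 (SD, n = 3 each, exact permutation p = 0.7). Prmt1-201 had the smallest p, with 210, 611 and 189 counts in the TCR alone samples and 102, 146 and 193 in TCR+DMGV (log2 fold change -1.25, interval -2.68 to 0.18, edgeR unadjusted p = 0.076). One sample, TCR alone replicate 2, held the high value, and the groups overlapped. The cassette exon of Prmt1 was included in 29.3%, 36.8% and 25.2% of counts in the TCR alone samples and 28.3%, 31.6% and 30.2% in TCR+DMGV. Its mean inclusion was 30.4% ± 5.86 and 30.0% ± 1.66 (SD, n = 3 each), so transcripts without the exon held most of the counts in every sample.

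Prmt2 was the only gene whose leading transcript had shares that did not overlap between groups. Prmt2-202 had 201, 331 and 296 counts in the TCR alone samples and 278, 239 and 118 in TCR+DMGV, or 69.0% ± 5.51 and 50.9% ± 16.8 of the gene (SD, n = 3 each, exact permutation p = 0.1, the smallest possible). The difference was -18.1 percentage points, and -8.71 without TCR+DMGV replicate 3, the lowest sample. Over all genes with such a share 8.62% did not overlap, and 1 of 8 was found here. Prmt2-203, with the extension printed above, had 0, 35 and 29 counts in the TCR alone samples and 27, 141 and 145 in TCR+DMGV (log2 fold change 2.26, interval -1.34 to 5.86, edgeR unadjusted p = 0.17). TCR+DMGV replicates 2 and 3 were high, whereas TCR+DMGV replicate 1 lay within the range of TCR alone.

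The leading shares of the other genes varied less. Prmt5-201 held 98.9% ± 0.0521 of Prmt5 counts in the TCR alone samples and 98.9% ± 0.237 in TCR+DMGV, and Prmt7-201 held 97.6% ± 1.14 and 96.5% ± 1.07 of Prmt7 counts (SD, n = 3 each, exact permutation p = 1.0 and 0.2). Both were also the transcripts of smallest p of their genes (edgeR unadjusted p = 0.20 and 0.29). The within-group spread of Prmt5-201, 0.171 percentage points, was larger than that of 4.68% of genes. Prmt3-201 held 85.3% ± 5.87 and 80.2% ± 3.92 (p = 0.5), Prmt6-201 63.5% ± 7.15 and 57.2% ± 8.40 (p = 0.5), and Ddah2-201 89.0% ± 9.14 and 87.7% ± 6.63 (p = 0.9), each by the exact permutation test. Prmt3-206, marked for nonsense-mediated decay, ranged from 57 counts in TCR alone replicate 3 to 855 in TCR+DMGV replicate 3.

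**Figure D3:**
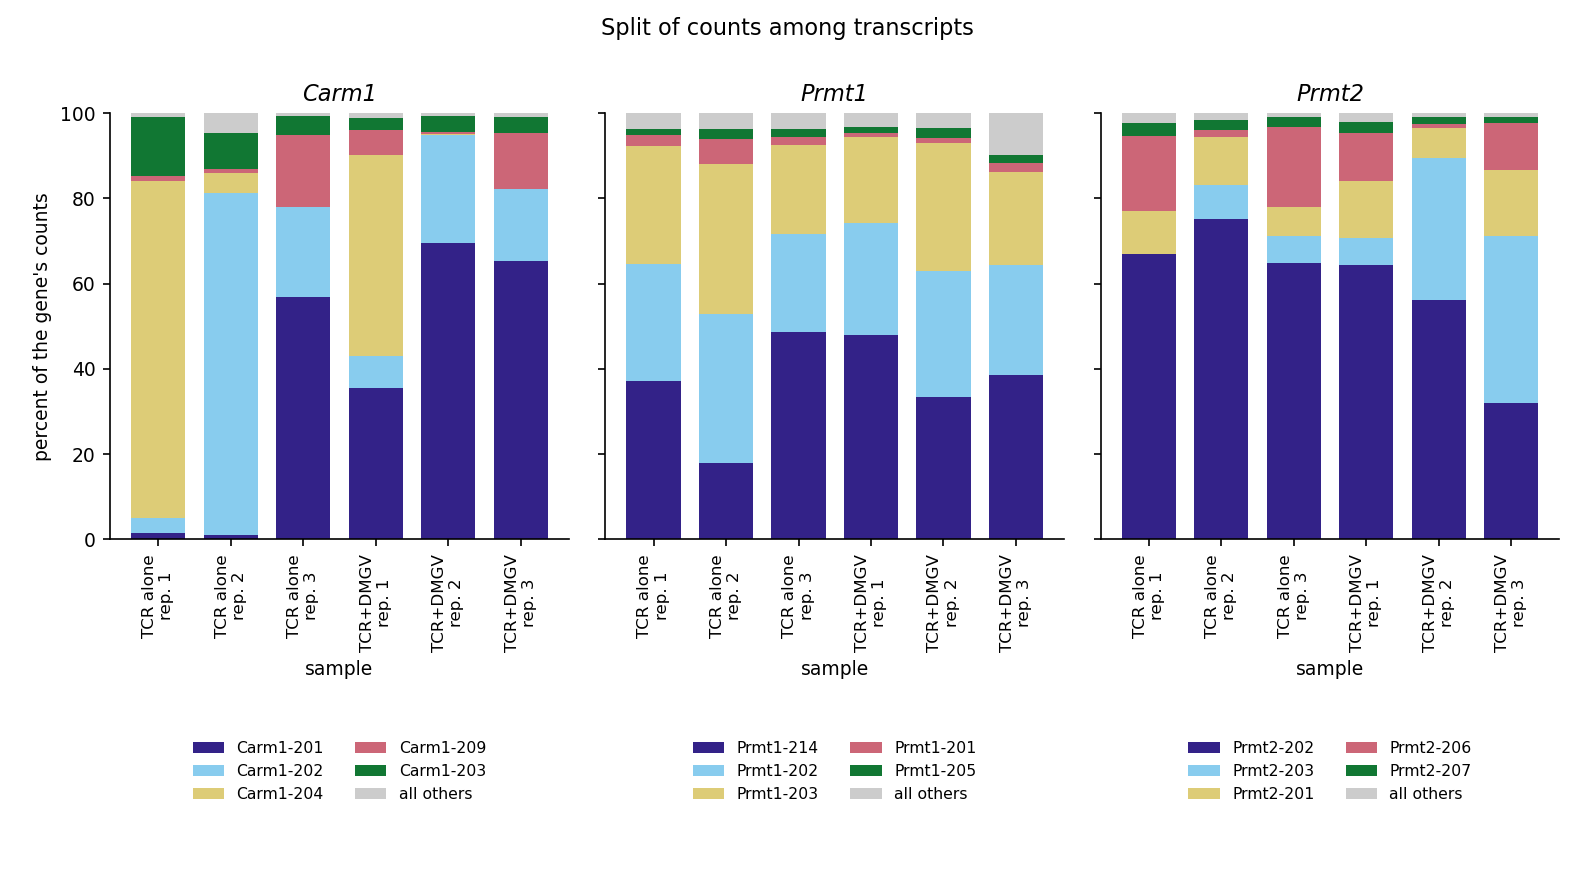
Percent of each gene's counts (0 to 100, stacked bars) given to its 5 leading transcripts and to all others, for Carm1, Prmt1 and Prmt2 in each of the 6 samples. Carm1-204 fills most of the bar of TCR alone replicate 1 and Carm1-202 that of TCR alone replicate 2, while Prmt2-203 is largest in TCR+DMGV replicates 2 and 3.

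Genes around these enzymes were read from 7 lists of 39 genes, of which 35 were tested. None passed the threshold of edgeR or an unadjusted p below 0.05 (background 0.0135% and 3.19%), 23 had a log2 fold change above 0 and 12 below, and the median was 0.03 beside 0.0024 for all genes tested. Of the other arginine methyltransferases, Prmt8, known from brain, was at 0 counts in all samples, and Ndufaf7, a mitochondrial methyltransferase for complex I assembly, had the smallest p (26.9 ± 2.03 CPM in TCR alone, 30.1 ± 2.71 in TCR+DMGV, log2 fold change 0.16, edgeR unadjusted p = 0.18). Prmt9, a type II enzyme, was the 1 gene of 35 whose CPM did not overlap between groups (24.0 ± 0.781 and 25.8 ± 1.08), below the background of 8.86%, and its FPKM overlapped.

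Of the 4 PRMT5 partners, 3 were above 0 and 1 below. Wdr77, which encodes the MEP50 subunit of the PRMT5 complex, had 107 ± 5.65 CPM in TCR alone and 115 ± 14 in TCR+DMGV (log2 fold change 0.10, interval -0.15 to 0.35). Readers of dimethylarginine split 2 and 2, with Tdrd3, a Tudor domain protein, at 0.08 (-0.14 to 0.31). Of the 14 substrates, 11 were above 0, and Fbl, the nucleolar fibrillarin rich in dimethylarginine, had 402 ± 30.6 CPM in TCR alone and 437 ± 13.5 in TCR+DMGV (0.12, -0.06 to 0.31).

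Methyl donor supply gave 1 gene above 0 and 3 below. Mat2b, the regulatory subunit of the S-adenosylmethionine synthetase, had the smallest p there, with 68.1 ± 2.24 CPM in TCR alone and 71.2 ± 3.29 in TCR+DMGV (0.06, -0.12 to 0.25). In the list of nitric oxide, citrulline and cationic amino acid genes, 4 of the 6 tested were above 0 and Nos3, the endothelial synthase, failed the filter at 0.228 ± 0.199 and 0.141 ± 0.059 CPM. The inducible synthase Nos2 was hardly read either, at 0.676 ± 0.378 CPM in TCR alone and 0.688 ± 0.104 in TCR+DMGV. The arginine transporter gene Slc7a1 had 350 ± 22.4 and 344 ± 6.55 CPM, while its relative Slc7a2, of smallest p in the list, had 0.276 ± 0.140 and 0.382 ± 0.332 (log2 fold change 0.46, interval -2.12 to 3.04). Among the aminotransferases related to Agxt2, Agxt and Etnppl were at 0 counts in all samples, and Phykpl, a phospholyase of lysine breakdown, had 210 ± 2.89 CPM in TCR alone and 208 ± 4.58 in TCR+DMGV (-0.02, -0.17 to 0.13). Values are mean ± SD of 3 samples per group, and Prmt9, Nos2 and Slc7a1 were named after their values were seen.

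**Figure D4:**
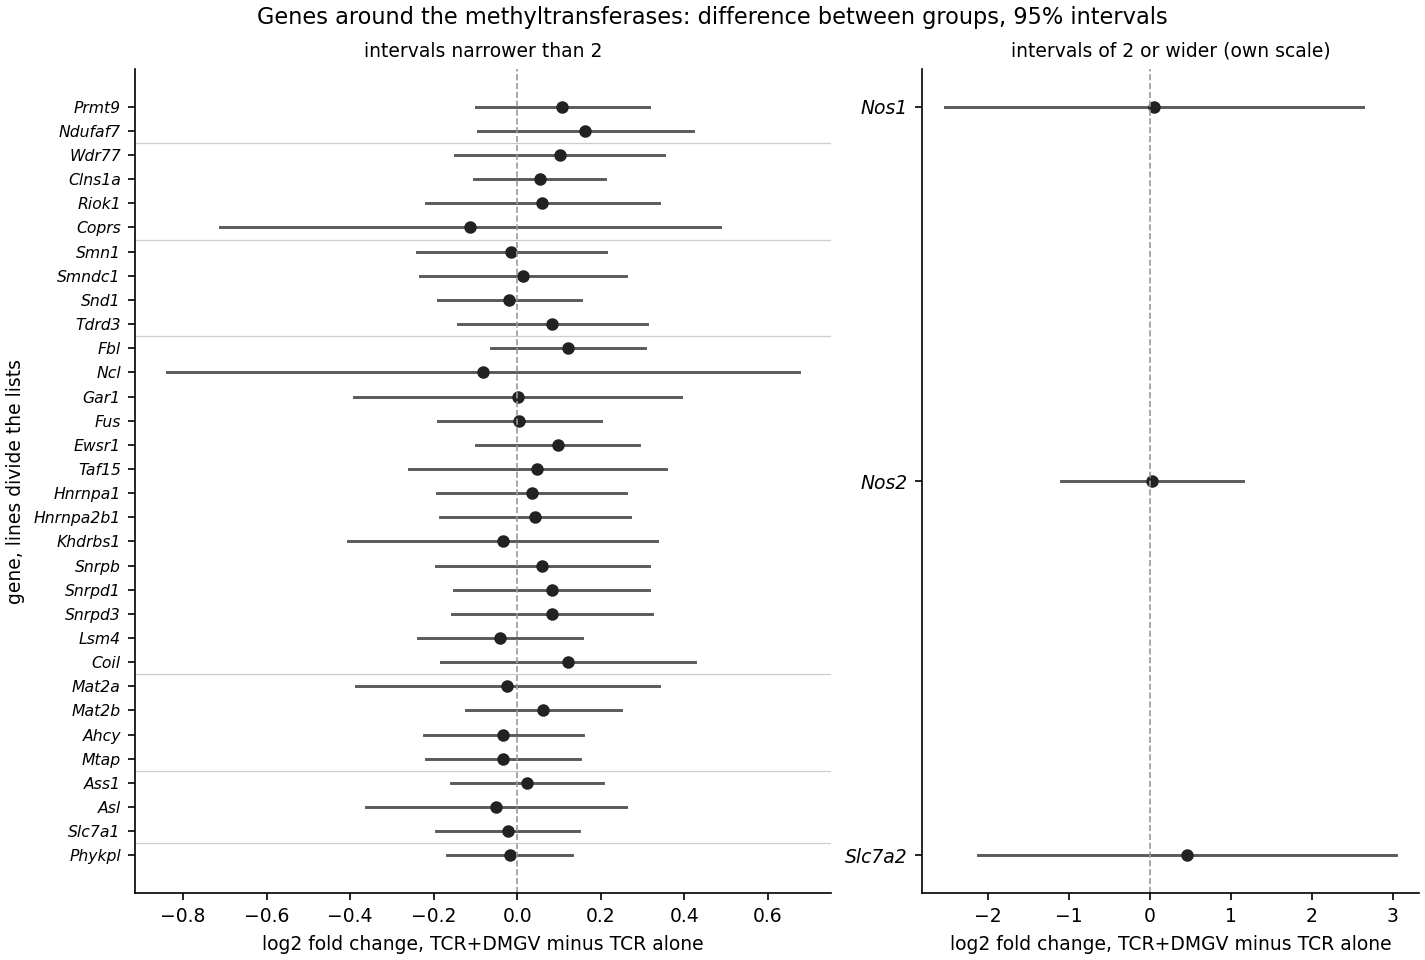
Log2 fold change (TCR+DMGV minus TCR alone, edgeR) with 95% intervals for the 35 tested genes of the 7 lists, 3 samples per group. Thin lines on the left divide the lists, the right panel has its own scale for the 3 genes with wide intervals (Nos1, Nos2, Slc7a2), and all 35 intervals include 0.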

How the data were processed

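RNA of 6 samples, 3 per group, was analysed. Per the paper's methods, reads were cleaned with SOAPnuke, aligned with HISAT2 (2.0.4 in the submitters' processing notes) and quantified with StringTie. The authors deposited unnormalized whole-number counts and FPKM values per gene and per transcript. How StringTie's output became counts is not given in the sources used here, and the summed counts exceed the reads stated in the labels, so a count is not 1 read. The processing notes name mm9, whereas 99.7% of gene and 99.6% of transcript identifiers, without version, were found in GENCODE M21 (GRCm38), the source of symbols and coordinates.

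Gene and transcript counts were each fitted over the whole table with edgeR 4.0.16 in R 4.3.3 (TMM normalization, filterByExpr, quasi-likelihood test, Benjamini-Hochberg adjustment, threshold 0.05). CPM were scaled by TMM, except those given for 3 counts. Shares of leading transcripts (most counts over all samples) were compared by two-sided exact permutation. Fits were tested on simulated data. The study calls the samples independent biological samples, and the labels do not tie them to animals; p-values measure the spread between these samples, which may be technical. Named were all 10 genes, the leading and smallest-p transcript of each, and per list the gene of smallest p and those that failed the filter. Genes, lists and tests were chosen with earlier results of these data known. Alternatives included DESeq2 1.42.0 and limma 3.58.1 on log2(FPKM + 1).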

Additional observations from a re-analysis of the deposited data

How the results depend on the processing

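The number of genes past the threshold was 0 for the 8 genes, the 49 transcripts and the related lists under every alternative that gave a value, other than a threshold on the unadjusted p, under which 1 transcript (Carm1-203) passed with all samples. Of 136 log2 fold changes of the 8 genes under alternatives, 126 kept their sign, 10 reversed and none passed the threshold (lowest adjusted p 0.65). Without TCR alone replicate 3, Prmt5 had an unadjusted p of 0.032, in a fit where 7.30% of genes were below 0.05. Prmt1 was at -0.0034 on log2(FPKM + 1) with or without a filter and at -0.0035 on log2(FPKM + 0.1). The fit without a filter drew a warning that most variances were 0, so its p-values are unreliable. Without the 2 samples that stood apart, Prmt2 was at 0.0402, Prmt3 at -0.0229 and Slc7a2 at -0.233. Leaving out each sample in turn gave ranges of -0.0483 to 0.0498 for Prmt1, -0.197 to 0.0494 for Prmt2, -0.0115 to 0.194 for Prmt6, 0.0174 to 0.262 for Carm1, 0.0642 to 0.181 for Prmt5, 0.0536 to 0.150 for Prmt7, -0.0209 to 1.04 for Slc7a2 and 0.04 to 0.16 for the median. For leading transcripts, the difference in share ranged from -2.97 to 12.4 percentage points for Prmt1, -24.9 to -8.71 for Prmt2, -0.127 to 0.101 for Prmt5 and -6.11 to 2.99 for Ddah2, and that of Prmt5 was -0.196 from FPKM. The number of genes whose shares did not overlap ranged from 1 to 3. The cause of these changes was not tested.

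Same-numbered samples did not deviate together (correlations -0.154, 0.121 and -0.148), so the numbers were not taken to pair the samples. With the replicate number as a block, no gene or transcript passed, and the shares of 3 genes moved the same way within all numbers, where the sign-flip test cannot go below 0.25. With 3 samples per group and these counts, changes of Ddah2 and of single transcripts smaller than their intervals were not detectable.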
